A study of Rattus norvegicus with 4 samples.

Results

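Elastic fibres and crosslinked collagen were followed through 10 genes in nuclei of the fat around the thoracic aorta and of a classical brown fat depot. The genes encode 5 fibre proteins (Eln, Fbn1, Fbln1, Fbln5 and Mfap4), the lysyl oxidases Lox and Loxl1, and the lysyl hydroxylases Plod1, Plod2 and Plod3. They were chosen by symbol, 10 of the 32883 genes in the files, for their levels in fibroblast and smooth muscle nuclei of the 2 tissues. Levels in those 2 classes are therefore given as a description, with no test between the tissues. All samples came from male Dahl salt-sensitive rats (strain SS/HsdMcwiCrl) aged 16 weeks, which were naive, meaning untreated, and labelled normal. The tissues were thoracic aorta perivascular adipose tissue (taPVAT, 2 libraries) and subscapular brown adipose tissue (BAT, 2 libraries). The design text names 2 rats for each tissue, and nothing in the labels tells if any rat supplied both tissues. No group carries a transgene or a treatment, and with 2 libraries a tissue the spread between libraries is poorly known.

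Elastic fibres are built from tropoelastin, which is laid down on a scaffold of fibrillin microfibrils with the help of fibulins. Lysyl oxidases convert lysines of elastin and collagen into reactive aldehydes that join neighbouring chains. Lysyl hydroxylases act earlier, inside the cell, on lysines of new collagen chains, and so set which kind of crosslink can form. In the vessel wall, smooth muscle and adventitial fibroblasts are known makers of this matrix.

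The libraries held 14765 to 44637 barcodes and 63654436 to 158140959 UMIs (unique molecular identifiers, each counted as 1 RNA molecule), with a median of 2602 to 4027 UMIs a barcode. Nuclei were assigned to classes by marker genes, none of which is among the 10. Values of the 4 libraries are given for taPVAT first and BAT second, each with replicate 1 before replicate 2. Fibroblast nuclei numbered 645, 340, 645 and 309, and smooth muscle nuclei 180, 50, 236 and 237. Levels are UMIs of a gene per 1000000 UMIs of the class in that library (CPM). Fibroblast nuclei had a median of 2023 to 2227 UMIs and a median mitochondrial share of 11.5 to 16.2%, and for both measures the tissues overlapped. Of the 11 fibroblast markers present in the files, 10 were detected in the fibroblast nuclei of each library and Cd248 was at 0. They summed to 2875 and 4101 CPM in taPVAT and to 3021 and 2632 CPM in BAT, where the tissues overlapped. Both taPVAT libraries were higher for Pdgfra (189 and 271 CPM against 139 and 141 CPM) and for Dcn (581 and 983 CPM against 530 and 457 CPM), and the part of this in the fibroblast levels below was not tested. Adipocyte markers, 11 of 12 detected, summed to between 7290 and 11637 CPM in fibroblast nuclei, against 17441 to 19989 CPM in adipocyte nuclei. In smooth muscle nuclei the adipocyte markers summed to between 15225 and 18214 CPM. The smooth muscle markers there summed to 4124 and 1966 CPM in the taPVAT libraries and to 4950 and 4684 CPM in the BAT libraries. The part of adipocyte RNA in the class levels was not tested. Between 126 and 424 barcode sequences were shared by a pair of libraries, at most 1.29% of the smaller one.

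In fibroblast nuclei, both taPVAT libraries lay above both BAT libraries for 7 of the 9 genes that passed the filter on low counts, and none lay below. Across all 9376 genes that passed, 14% had both taPVAT libraries above and 10.4% had both below. Since this contrast chose the genes, nothing is read from that difference. The span among the 9 genes was wide, from a log2 fold change of 5.06 for Plod2 to -0.35 for Plod3, with a median of 1.13. In smooth muscle nuclei none of 5 genes lay above in taPVAT, where 10.5% of all 7885 genes did, and 3 lay below, where 13.4% did. For 2 of those 3, Eln and Plod2, the tissues overlapped when smooth muscle was gated without Lmod1 or with 4 markers.

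**Figure D1:**
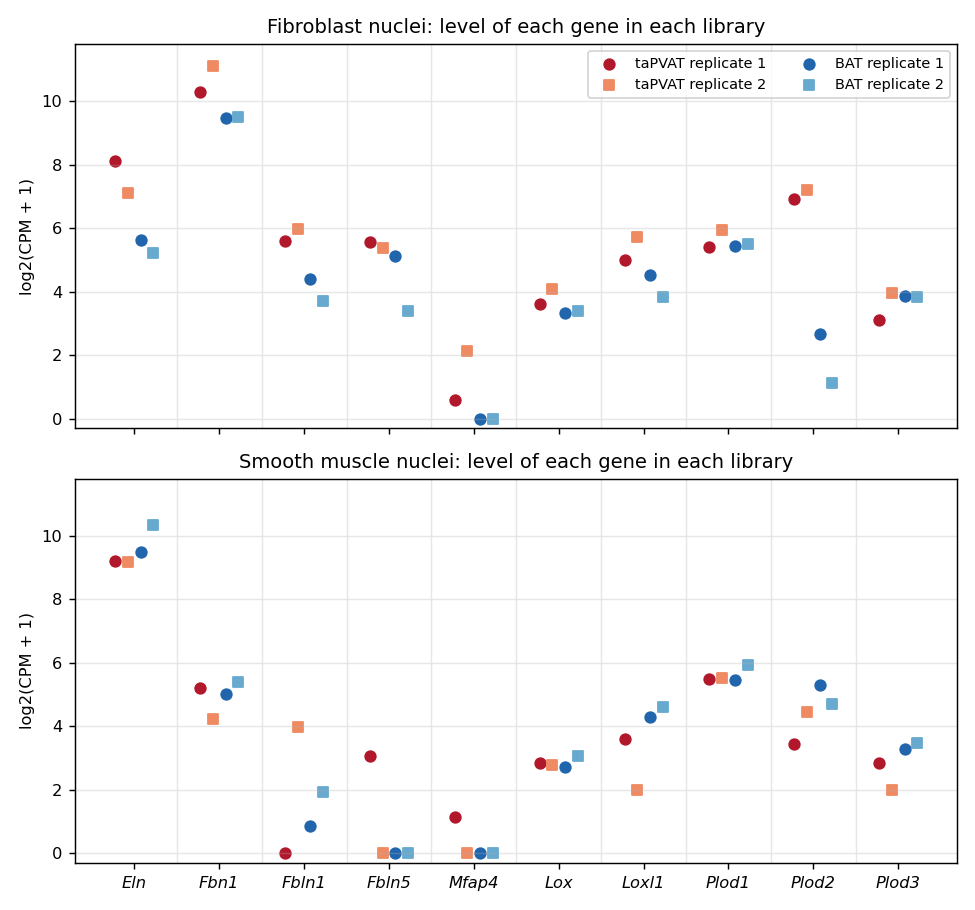
Level of each of the 10 genes in fibroblast nuclei (top) and smooth muscle nuclei (bottom), as log2(CPM + 1), with 1 point for each library. The 2 taPVAT points of Plod2 stand far above the 2 BAT points in fibroblasts, while Plod1 and Plod3 overlap between the tissues.

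Among the fibre proteins, Eln (ENSRNOG00000001469), which encodes tropoelastin, measured 275 and 138 CPM in taPVAT fibroblasts and 48.7 and 36.0 CPM in BAT fibroblasts. Both taPVAT libraries were higher, though they also differed widely from each other. The log2 fold change of taPVAT over BAT was 2.26 ± 0.41 (SE), and 1.66 without taPVAT replicate 1. The Eln RNA was concentrated in few nuclei. A UMI was seen in 20.8% of taPVAT replicate 1 fibroblast nuclei (Wilson 95% interval 17.8 to 24.1%) and in 12.6% of those of replicate 2 (9.53 to 16.6%). In BAT the shares were 6.51% (4.85 to 8.68%) and 6.15% (3.97 to 9.40%). Adipocyte nuclei, which were deeper (medians of 2654 to 4766 UMIs), showed 2.51, 1.04, 1.70 and 2.09%. All 4 fibroblast libraries thus stood above the adipocyte share. After thinning each nucleus to 1000 UMIs the fibroblast shares were 14.9 and 7.72% in taPVAT and 4.11 and 2.30% in BAT. Nuclei with 3 or more Eln UMIs held 79.6 and 65.6% of the Eln UMIs of taPVAT fibroblasts, and 60.4 and 30.0% of those of BAT fibroblasts. The highest single nucleus carried 34 and 27 Eln UMIs in the taPVAT libraries and 23 and 3 in the BAT libraries.

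Fbn1 (ENSRNOG00000007302), which encodes fibrillin-1, the main microfibril protein, measured 1258 and 2181 CPM in taPVAT fibroblasts and 703 and 718 CPM in BAT fibroblasts. The 2 BAT libraries were close together and both taPVAT libraries lay above them. The log2 fold change was 1.25 ± 0.42 (SE), and 0.77 without taPVAT replicate 2. Fbn1 RNA was found in 72.4 and 70.3% of taPVAT and in 58.8 and 49.5% of BAT fibroblast nuclei, against 2.53 to 5.84% of adipocyte nuclei. At 1000 UMIs a nucleus the fibroblast shares were 53.6 and 58.8% in taPVAT and 38.4 and 34.2% in BAT.

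Fbln1 (ENSRNOG00000014137) and Fbln5 (ENSRNOG00000050539) encode fibulins, and fibulin-5 tethers elastin and lysyl oxidases to the microfibrils. Fbln1 measured 47.2 and 62.2 CPM in taPVAT and 20.3 and 12.0 CPM in BAT fibroblasts, a log2 fold change of 1.68 ± 0.39 (SE). Fbln5 measured 46.2 and 40.7 CPM in taPVAT and 34.2 and 9.59 CPM in BAT fibroblasts. The groups of Fbln5 did not overlap, but BAT replicate 1 sat near the taPVAT libraries. Its log2 fold change was 0.89 ± 0.50 (SE), with 2.06 without BAT replicate 1 and 0.37 without BAT replicate 2. Mfap4 (ENSRNOG00000002382), which encodes a glycoprotein bound to microfibrils, was barely seen. It had 1 and 3 UMIs in taPVAT fibroblasts and 0 in both BAT libraries, too few for a fold change, and it passed the filter on low counts in none of the fits.

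Of the 2 lysyl oxidases, Loxl1 had the larger tissue difference. Lox (ENSRNOG00000014426) measured 11.3 and 15.8 CPM in taPVAT fibroblasts and 9.16 and 9.59 CPM in BAT fibroblasts. Its log2 fold change of 0.48 ± 0.48 (SE) was about the size of its error. Loxl1 (ENSRNOG00000008680), the family member most tied to elastin, measured 30.8 and 52.0 CPM in taPVAT and 22.2 and 13.2 CPM in BAT fibroblasts. Its log2 fold change was 1.13 ± 0.43 (SE).

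The 3 lysyl hydroxylases parted ways. Plod2 (ENSRNOG00000030183), whose enzyme hydroxylates lysines in the collagen telopeptides, measured 121 and 145 CPM in taPVAT fibroblasts and 5.31 and 1.20 CPM in BAT fibroblasts. These levels rest on 236 and 128 UMIs in taPVAT and on 11 and 1 UMIs in BAT. Both taPVAT libraries were far above both BAT libraries, with a log2 fold change of 5.06 ± 0.51 (SE). Plod1 (ENSRNOG00000007763), whose enzyme acts on lysines in the collagen helix, measured 41.1 and 61.1 CPM in taPVAT and 42.0 and 44.4 CPM in BAT fibroblasts. Plod3 (ENSRNOG00000001417), whose enzyme also adds sugars to hydroxylysine, measured 7.70 and 14.7 CPM in taPVAT and 13.5 and 13.2 CPM in BAT fibroblasts. For Plod1 and Plod3 the 2 tissues overlapped, with log2 fold changes of 0.20 ± 0.36 (SE) and -0.35 ± 0.51 (SE). Leaving out 1 library turned the sign of both, to -0.12 for Plod1 without taPVAT replicate 2 and to 0.11 for Plod3 without taPVAT replicate 1.

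The promoters of the 3 hydroxylase genes are shown because these paralogues differed in pattern. Each line gives the 250 bases before the gene's start from RefSeq on GRCr8, read on the gene's strand. Capitals mark ACGTG and GCGTG, the 2 forms of the core that hypoxia-inducible factors bind, which read CACGT and CACGC where they lie on the opposite strand. The forms can overlap each other across strands, and GCGTG was added after the windows had been searched for ACGTG. The windows are chr5:163650738-163650987 (minus strand) for Plod1, chr8:101964068-101964317 (plus strand) for Plod2 and chr12:25323632-25323881 (minus strand) for Plod3.
Plod1: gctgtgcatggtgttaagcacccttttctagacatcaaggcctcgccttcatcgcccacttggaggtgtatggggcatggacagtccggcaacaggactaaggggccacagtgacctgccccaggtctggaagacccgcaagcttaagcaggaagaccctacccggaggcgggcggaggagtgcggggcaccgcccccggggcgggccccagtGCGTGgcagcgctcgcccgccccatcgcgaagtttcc
Plod2: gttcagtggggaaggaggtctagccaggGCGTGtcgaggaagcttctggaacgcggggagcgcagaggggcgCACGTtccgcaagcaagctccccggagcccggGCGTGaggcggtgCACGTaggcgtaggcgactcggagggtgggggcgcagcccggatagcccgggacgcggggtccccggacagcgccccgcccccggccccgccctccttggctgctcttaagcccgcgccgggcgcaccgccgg
Plod3: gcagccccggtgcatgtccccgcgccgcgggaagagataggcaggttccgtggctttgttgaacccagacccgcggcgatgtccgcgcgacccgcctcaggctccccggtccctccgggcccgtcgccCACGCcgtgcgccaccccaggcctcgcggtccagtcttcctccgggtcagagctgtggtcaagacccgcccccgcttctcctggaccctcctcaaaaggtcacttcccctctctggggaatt
Plod2 held 2 matches to ACGTG, which start 178 and 133 bases before the gene's start, and 2 to GCGTG, at 222 and 146 bases. Plod1 and Plod3 each held 1 match to GCGTG, at 37 and 122 bases, and Fbln5 held 2. The windows of Fbn1 and Loxl1 held neither form, and the table matched 6 of the 10 genes. Of all 33469 promoter windows of this length, 16.6% held ACGTG, 25.9% held GCGTG and 36.7% held at least 1 of them, so a match is common. The share of windows with as many matches as Plod2 was not counted. GC content was 65.6% in the Plod1 window, 74.8% in that of Plod2 and 69.6% in that of Plod3. A link between these matches and the RNA levels was not tested. Eln, Fbln1, Mfap4 and Lox have no window here.

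The share of fibroblast nuclei with a Plod2 UMI followed the summed levels. It was 25.3% (Wilson 95% interval 22.1 to 28.8%) and 21.8% (17.7 to 26.5%) in taPVAT, and 1.71% (0.955 to 3.03%) and 0.324% (0.0572 to 1.81%) in BAT. Thinned to 1000 UMIs a nucleus, the shares were 12.3 and 11.9% in taPVAT and 0.632 and 0.329% in BAT. Without thinning, adipocyte nuclei, which were deeper, showed 0.781 and 0.565% in taPVAT and 0.149 and 0.270% in BAT. The unthinned intervals of BAT replicate 2 fibroblasts and adipocytes overlapped, so the fibroblast share of that library is read as background. T or NK lymphocyte nuclei had a Plod2 UMI in 1 of 154 nuclei of taPVAT replicate 1 and in 0 of 47, 177 and 56 of the other libraries. No BAT fibroblast nucleus had more than 1 Plod2 UMI, while the highest in taPVAT had 5 and 11.

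**Figure D2:**
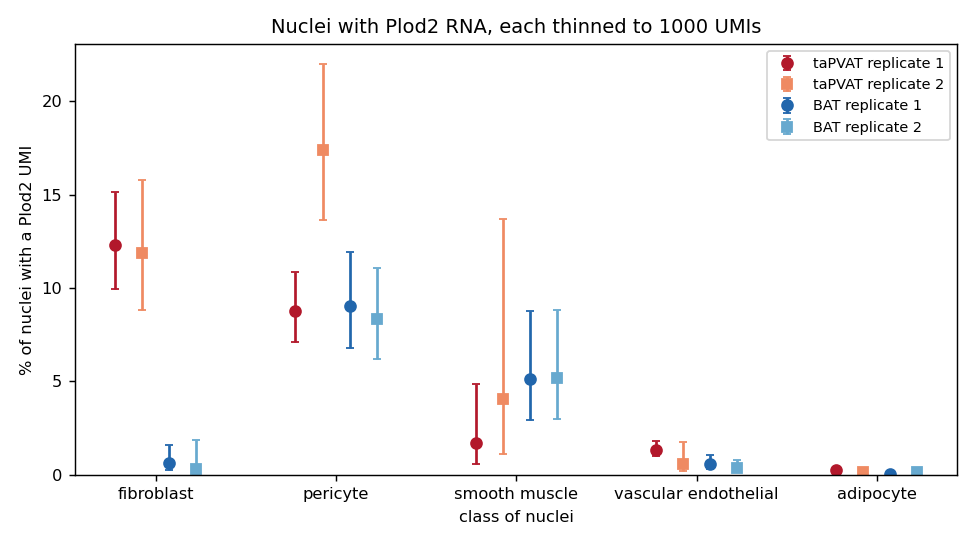
Share of nuclei with at least 1 Plod2 UMI after thinning each nucleus to 1000 UMIs, by class and library, with Wilson 95% intervals that cover counting error only. Fibroblasts stand at 12.3 and 11.9% in taPVAT against 0.632 and 0.329% in BAT, while pericyte shares are similar in 3 of the 4 libraries.

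Wt1, a mesothelial marker, had UMIs in fibroblasts of taPVAT and in none of BAT. The 7 mesothelial markers in the files summed to 143 and 103 CPM in taPVAT fibroblasts (4 and 2 of the 7 detected) and to 49.2 and 33.6 CPM in BAT fibroblasts (1 of the 7 detected, Gpm6a). Wt1 was at 32.9 and 74.6 CPM in taPVAT fibroblasts, most of the sum in replicate 2. Bnc1, Krt19 and Upk3b were at 0 in fibroblasts of all 4 libraries. Msln was at 1.03 and 0 CPM in taPVAT fibroblasts and 0 in both BAT libraries, against 320 and 544 CPM in taPVAT mesothelial nuclei. Gated mesothelial nuclei, 72 and 30 in taPVAT and 0 in BAT, had Plod2 at 177 and 447 CPM. Without the 54 and 39 taPVAT fibroblast nuclei that held a UMI of a mesothelial marker other than Gpm6a, Plod2 measured 117 and 123 CPM in taPVAT fibroblasts, and the log2 fold change was 4.90. The Eln log2 fold change was then 2.29.

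The 4 libraries were also compared in nuclei split by Pi16 and Dpp4, genes that mark progenitor-like fibroblasts of the adventitia. A UMI of either was found in 28.4 and 30.9% of taPVAT and in 9.15 and 6.47% of BAT fibroblast nuclei. Fbn1 followed this split. It measured 2155 and 4537 CPM in taPVAT and 2647 and 2482 CPM in BAT nuclei with such a UMI, where the tissues overlapped. In nuclei without it Fbn1 measured 887 and 1222 CPM in taPVAT and 488 and 592 CPM in BAT, where both taPVAT libraries were higher. Eln measured 570 and 336 CPM in taPVAT and 121 and 108 CPM in BAT nuclei with such a UMI, and 152, 57.3, 40.7 and 30.8 CPM, in the same order, in those without. The 121 and 108 CPM of Eln rest on 25 and 6 UMIs. Plod2 measured 140 and 168 CPM in taPVAT and 4.84 and 0 CPM in BAT nuclei with a Pi16 or Dpp4 UMI. The BAT values rest on 59 and 20 nuclei with 1 and 0 Plod2 UMIs, and the taPVAT values on 183 and 105 nuclei with 80 and 43. In nuclei without such a UMI Plod2 measured 113 and 135 CPM in taPVAT and 5.36 and 1.28 CPM in BAT, the last 2 on 10 and 1 UMIs. Lox was lower in taPVAT in nuclei without such a UMI, at 7.26 and 4.77 CPM against 9.11 and 10.3 CPM. Fbln5 overlapped between the tissues in those nuclei, and Loxl1 in nuclei with such a UMI. On the other side of the split these genes were higher in both taPVAT libraries, and Fbln1 was so on both sides. A nucleus without such a UMI may still have held RNA of either gene.

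**Figure D3:**
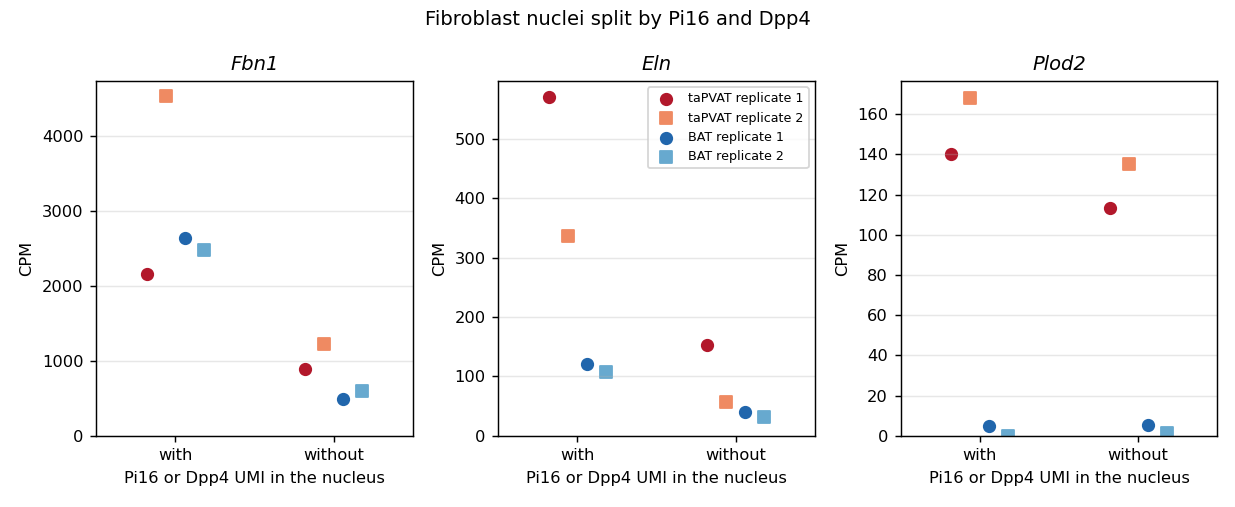
Fbn1, Eln and Plod2 levels (CPM) in fibroblast nuclei with and without a Pi16 or Dpp4 UMI, 1 point for each library. Fbn1 overlaps between the tissues in nuclei with such a UMI, while Plod2 is at 113 CPM or more in taPVAT and at 5.36 CPM or less in BAT on both sides.

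Smooth muscle nuclei showed another picture. Eln measured 583 and 581 CPM in taPVAT and 713 and 1292 CPM in BAT smooth muscle, a log2 fold change of -0.77 ± 0.39 (SE), and -0.19 without BAT replicate 2. Loxl1 measured 11.1 and 2.97 CPM in taPVAT and 18.4 and 23.2 CPM in BAT smooth muscle, with -1.31 ± 0.61 (SE) on the log2 scale. These levels rest on 9 and 1 UMIs in taPVAT and on 23 and 25 in BAT, and the value was -2.70 without taPVAT replicate 1, where 1 taPVAT UMI was left. Plod2 measured 9.83 and 20.8 CPM in taPVAT and 38.5 and 25.1 CPM in BAT smooth muscle, with -1.15 ± 0.54 (SE) on the log2 scale, and -0.55 without taPVAT replicate 1. Its levels rest on 8 and 7 UMIs in taPVAT and on 48 and 27 in BAT. Both taPVAT libraries were below both BAT libraries for these 3 genes. Fbn1 (17.8 to 40.9 CPM) and Plod1 (43.3 to 60.4 CPM) overlapped between the tissues. The other 5 genes did not pass the filter on low counts. Fbln5 had UMIs in taPVAT replicate 1 alone, at 7.37 CPM. By edgeR 0% of the 7885 genes were called in smooth muscle, with 139 at an unadjusted p under 0.05 and 1 called by DESeq2.

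The smooth muscle gate was least pure in taPVAT replicate 2, as the marker sums above show. One of its markers, Lmod1, also measured 104 and 118 CPM in taPVAT and 207 and 175 CPM in BAT adipocyte nuclei. Without Lmod1 in the gate, 111 and 18 taPVAT and 158 and 147 BAT nuclei were left, and Eln measured 1115 and 2703 CPM in taPVAT against 1418 and 2332 CPM in BAT. The tissues then overlapped for Eln, and also for Plod2, at 20.5 and 93.7 CPM against 76.9 and 41.1 CPM. These Plod2 levels rest on 8 and 6 UMIs in taPVAT and on 45 and 22 in BAT. Loxl1 stayed lower in taPVAT, at 17.9 and 0 CPM against 37.6 and 41.1 CPM. With 18 nuclei in taPVAT replicate 2, this gate was not fitted.

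Across classes the genes had different homes. Fbn1 was highest in fibroblasts in all 4 libraries, and pericytes held 68.0 to 148 CPM and vascular endothelial nuclei 42.9 to 79.0 CPM. Fbln1 was highest in fibroblasts and in taPVAT mesothelial nuclei, where it measured 54.8 and 60.4 CPM. Eln was highest in smooth muscle in 3 of the 4 libraries with this gate, followed by vascular endothelial nuclei at 304 and 613 CPM in taPVAT and 529 and 378 CPM in BAT. In taPVAT replicate 2 the endothelial level was above the 581 CPM of smooth muscle, but below its 2703 CPM without Lmod1 (18 nuclei) and 2760 CPM with 4 markers (15 nuclei). Mesothelial nuclei held 291 and 338 CPM of Eln. Fbln5 was an endothelial gene here, with 98.4 and 150 CPM in taPVAT and 101 and 71.1 CPM in BAT vascular endothelial nuclei. Lymphatic endothelial nuclei of taPVAT held 85.2 and 171 CPM of Fbln5. Vascular endothelial nuclei held 53.5 to 66.6% of all Fbln5 UMIs in a library and 37.9 to 55.0% of all Eln UMIs.

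Plod2 had pericytes as its main home in BAT by share of UMIs. In taPVAT its level was highest in mesothelial nuclei, at 177 and 447 CPM. Pericytes measured 75.2 and 151 CPM of Plod2 in taPVAT and 83.4 and 53.5 CPM in BAT, where the tissues overlapped. The smooth muscle marker Myh11 was at 396 and 935 CPM in taPVAT and 593 and 784 CPM in BAT pericytes. In smooth muscle nuclei it was at 2072 and 824 CPM in taPVAT and 2350 and 1997 CPM in BAT. Acta2 was at 12.2 to 26.7 CPM in pericytes against 178 to 483 CPM in smooth muscle. The part of smooth muscle nuclei in the pericyte levels was not tested. A Plod2 UMI was found in 18.9 and 29.7% of taPVAT and in 17.3 and 14.99% of BAT pericyte nuclei. Pericytes held 40.8 and 35.2% of all Plod2 UMIs in BAT, and fibroblasts 3.30 and 0.383%. In taPVAT fibroblasts held 16.3 and 23.8%, pericytes 14.98 and 26.2%, and nuclei that entered no gate 39.1 and 26.0%. Lymphatic endothelial nuclei of taPVAT, 265 and 46 in number, measured 59.6 and 153 CPM of Plod2. Lox was highest in taPVAT mesothelial nuclei, at 16.9 and 60.4 CPM on 4 and 5 UMIs, with vascular endothelial nuclei at 4.58 to 14.5 CPM. Loxl1 was highest in fibroblasts in taPVAT, and in BAT replicate 2 smooth muscle (23.2 CPM) was above fibroblasts (13.2 CPM). Plod1 was spread evenly. It lay between 41.1 and 61.2 CPM in every library of fibroblasts, smooth muscle, pericytes, vascular endothelial nuclei and adipocytes, and adipocytes held 64.1 to 70.9% of its UMIs.

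**Figure D4:**
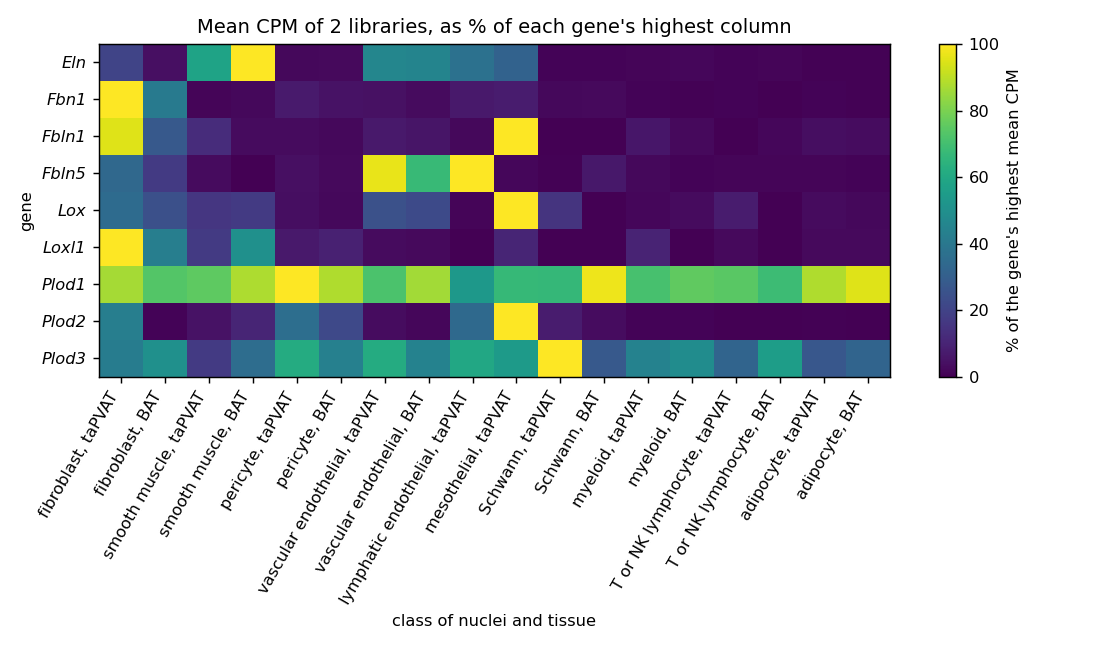
Mean CPM of the 2 libraries in each class and tissue, as a percentage of that gene's own highest column, for the 9 genes other than Mfap4. Rows are genes and are not comparable with each other in level. Fbn1 peaks in taPVAT fibroblasts, Eln in smooth muscle columns, Fbln5 in endothelial columns and Plod2 in taPVAT mesothelial nuclei, while Plod1 is even. Plod2 is at 42.6% in taPVAT fibroblasts, 36.2% in taPVAT pericytes, 34.1% in taPVAT lymphatic endothelial nuclei and 21.9% in BAT pericytes. It is at 1.04% in BAT fibroblasts.

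**Figure D5:**
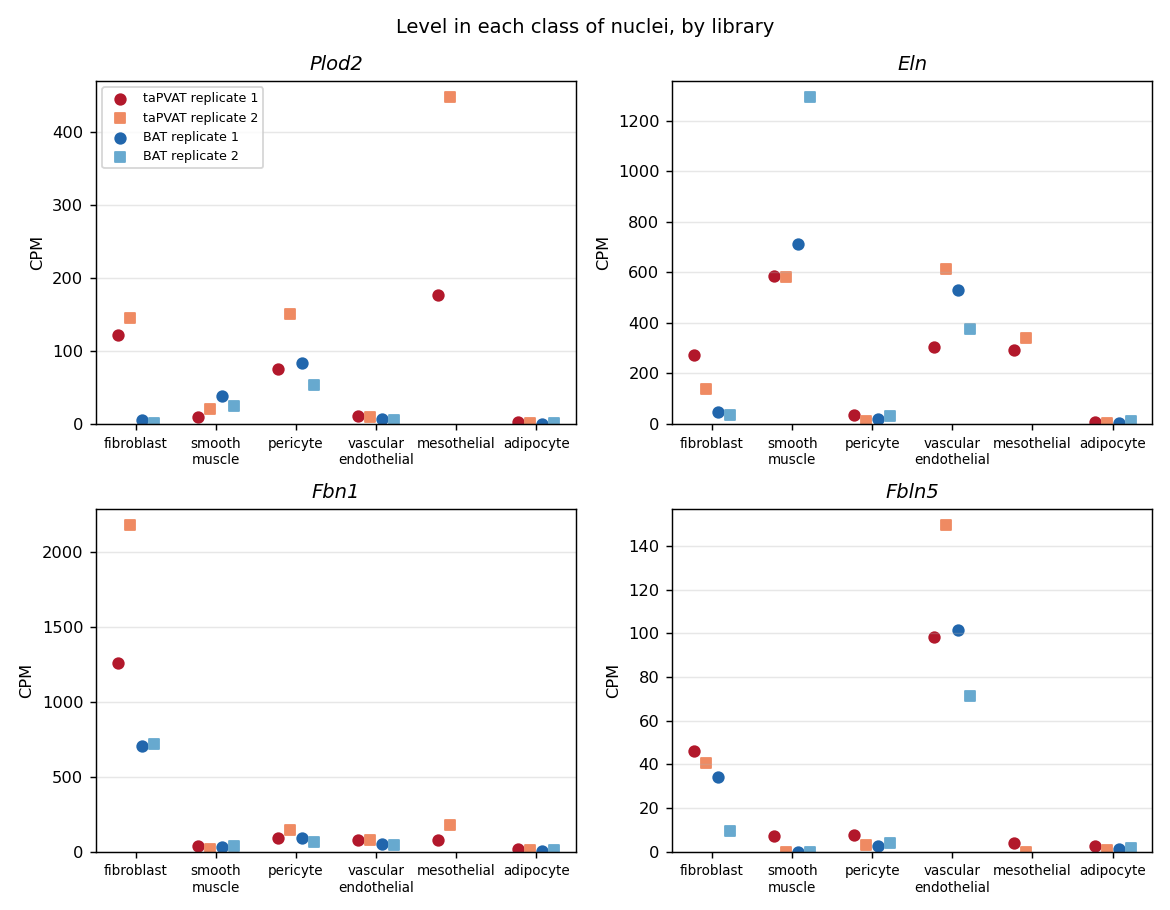
CPM of Plod2, Eln, Fbn1 and Fbln5 in 6 classes of nuclei, 1 point for each library. There are no mesothelial points for BAT because no BAT nucleus entered that gate.

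The difference between fibroblasts and smooth muscle was tested within libraries, as fibroblast over smooth muscle with the library as a block. The genes were chosen from the tissue differences in these same sums, so p-values of the class comparisons are not independent of that choice. Fbn1 was higher in fibroblasts and Eln was lower. By edgeR's quasi-likelihood test with Benjamini-Hochberg adjustment over 8193 genes, 3 of the 7 genes tested were called, at an adjusted p under 0.05, where 21.7% of all genes were called. Fbn1 had a log2 fold change of 4.91 ± 0.35 (SE), an edgeR adjusted p of 1.334e-05, and was higher in fibroblasts in 4 of 4 libraries. The other gene called, Fbln1, had 92, 55, 42 and 10 UMIs in fibroblasts and 0, 5, 1 and 3 UMIs in smooth muscle. It passed the filter on low counts through the fibroblasts alone, so its call and its place in the count are no test. Eln fell by 2.98 on the log2 scale (SE 0.57, edgeR adjusted p 0.00587) and was lower in 4 of 4 libraries. The size of this difference depends on the smooth muscle gate, since Eln there was at 1115, 2703, 1418 and 2332 CPM without Lmod1 in place of 583, 581, 713 and 1292 CPM, a gate that was not fitted. Plod2, Loxl1, Plod1 and Plod3 were not called, at edgeR adjusted p values of 0.7553, 0.3208, 0.7246 and 0.234. Plod2, Loxl1 and Plod3 reached the filter's cutoff in 3, 3 and 1 smooth muscle sums and passed only with the fibroblasts. The count of genes called is therefore a description. Plod2 was higher in fibroblasts in 2 of 4 libraries, those of taPVAT.

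Fibroblasts over adipocytes, tested in the same way over 13595 genes, gave 8 calls among the 9 genes tested, where 35.7% of all genes were called. Of these, 7 were higher in fibroblasts, where 18.9% of all genes were. For 5 of the 7 the adipocyte levels alone passed the filter on low counts. Fbln1 and Plod2 reached its cutoff of 0.479 CPM in 3 of 4 adipocyte libraries and passed with the fibroblasts, so their place in the count is no test. The genes were also chosen from these fibroblast levels. The counts of genes called are therefore a description, and nothing is read from their distance to the shares of all genes. All 7 had the higher CPM in fibroblasts in 4 of 4 libraries. Fbn1 had the largest log2 fold change of the 7, 6.28 ± 0.26 (SE, edgeR adjusted p 2.434e-08), and Lox the smallest, 3.39 ± 0.35 (SE, edgeR adjusted p 2.353e-05). Plod2 was at 5.08 ± 0.60 (SE). Its libraries differed widely, with 121, 145, 5.31 and 1.20 CPM in fibroblasts beside 2.45, 1.21, 0.354 and 0.930 CPM in adipocytes. The level of BAT replicate 2 fibroblasts is 1 UMI, so the order there is not read as a difference. Loxl1 was at 4.60, Fbln1 at 4.29, Fbln5 at 4.16 and Eln at 3.92. Plod1 fell by 0.40 (SE 0.14, edgeR adjusted p 0.04998) and was lower in 3 of 4 libraries. That call was lost under DESeq2 and on leaving out any library other than taPVAT replicate 2. Plod3 was not called (log2 fold change 0.40, edgeR adjusted p 0.2179).

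In vascular endothelial nuclei and adipocytes, which the choice of genes did not use, none of the genes tested among the 10 was called between the tissues. In endothelial nuclei 8 genes were tested and 0 were called, as were 0 of all 11797 genes (0%). At an unadjusted p under 0.05 there were 181 genes in all. Fbn1 measured 79.0 and 77.8 CPM in taPVAT and 54.0 and 42.9 CPM in BAT endothelial nuclei, a log2 fold change of 0.67 ± 0.26 (SE, unadjusted edgeR p 0.03883, adjusted p 0.9998). Plod2 measured 11.2 and 9.23 CPM in taPVAT and 6.42 and 5.17 CPM in BAT, 0.82 ± 0.38 on the log2 scale (SE, edgeR adjusted p 0.9998). These 2 genes were higher in both taPVAT libraries, where 10.9% of all genes were, and Plod1 was lower in both, where 9.08% were. Eln (log2 fold change -0.01 ± 0.40, SE) and Fbln5 (0.49 ± 0.32, SE) overlapped between the tissues. The Fbn1 difference was not particular to endothelial nuclei. Myeloid nuclei held 17.1 to 22.3 CPM of Fbn1 in taPVAT and 9.91 to 11.0 CPM in BAT. T or NK lymphocyte nuclei held 14.3 to 18.0 CPM in taPVAT and 0 to 5.84 CPM in BAT, on few UMIs. In pericytes both taPVAT libraries were also higher, while smooth muscle, B lymphocyte and Schwann nuclei overlapped. The part of free RNA in the endothelial levels was not tested.

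In adipocytes 9 genes were tested and 0 were called, as were 0 of all 15268 genes (0%), with 319 at an unadjusted p under 0.05. DESeq2 called 57 genes there and 4 in endothelial nuclei, none of them among the 10. Fbn1 measured 18.5 and 13.7 CPM in taPVAT and 7.26 and 12.3 CPM in BAT adipocytes, 0.74 ± 0.38 on the log2 scale (SE, edgeR adjusted p 0.9999). Plod2 measured 2.45 and 1.21 CPM in taPVAT and 0.354 and 0.930 CPM in BAT adipocytes, 1.55 ± 0.63 on the log2 scale (SE, unadjusted edgeR p 0.04869, adjusted p 0.9999). Both genes were higher in both taPVAT libraries, as were 8.77% of all genes, and Plod3 was lower in both, as were 10.8%. The adipocyte levels of Fbn1 and Plod2 are low beside the fibroblast levels of the same libraries, other than Plod2 in BAT replicate 2. Plod3 was at 6.73 to 8.87 CPM in adipocytes against 7.70 to 14.7 CPM in fibroblasts. The part of free RNA in the adipocyte levels was not tested.

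Other genes of the pathway were read from 4 lists. In the fibroblast contrast between the tissues, 14 of 16 other elastic fibre genes, 2 of 3 other lysyl oxidases, 17 of 21 collagen processing genes and 7 of 13 genes of elastin and collagen breakdown passed the filter. None was called, where 0.107% of all 9376 genes, 10 in number, were called by edgeR's quasi-likelihood test. With 1 library left out the count was 33 (taPVAT replicate 1), 0 (taPVAT replicate 2), 61 (BAT replicate 1) or 41 (BAT replicate 2). An unadjusted p under 0.05 was reached by 359 genes in all, and DESeq2 called 39. The median log2 fold changes of the lists were -0.05, -0.01, -0.14 and 0.05, beside -0.002 over all genes tested. Fbln2, another fibulin, measured 58.5 and 101 CPM in taPVAT and 16.9 and 21.6 CPM in BAT fibroblasts, a log2 fold change of 2.03 ± 0.42 (SE, edgeR adjusted p 0.2328). Over the fits without 1 library its edgeR adjusted p ranged from 0.02857 (without taPVAT replicate 1) to 0.9928 (without taPVAT replicate 2). The microfibril genes Mfap2 (1.70, edgeR adjusted p 0.8266) and Mfap5 (1.14, edgeR adjusted p 0.8932, and 0.62 on the log2 scale without taPVAT replicate 2) also had both taPVAT libraries above both BAT libraries. Mfap2 was low, at 10.8 and 20.4 CPM in taPVAT and 4.34 and 4.79 CPM in BAT. Of the 14 other elastic fibre genes tested, 5 had both above, 0 had both below and 9 overlapped. Their log2 fold change was above 0 for 7 of the 14. Of collagen processing, Adamts14 (-1.02), Tll1 (-0.79) and Colgalt2 (-0.67) had both taPVAT libraries below, each at an edgeR adjusted p of 0.9998. Of the 17 genes of that list, 2 had both above and 12 overlapped, where 14% of all genes lay above and 10.4% below. Adamts14 measured 67.3 and 79.1 CPM in taPVAT and 208 and 82.7 CPM in BAT, and Tll1 94.5 and 130 CPM against 239 and 143 CPM. BAT replicate 1 stood highest for both, and without it their log2 fold changes were -0.30 and -0.47. Adamts14 encodes a procollagen N-proteinase, Tll1 a procollagen C-proteinase and Colgalt2 an enzyme that adds galactose to hydroxylysine. Timp4, an inhibitor of matrix proteases, was at 1.93 (edgeR adjusted p 0.6448) and Loxl3, a further lysyl oxidase, at 0.26 (edgeR adjusted p 0.9998). Timp4 measured 13.4 and 14.7 CPM in taPVAT and 2.89 and 4.79 CPM in BAT fibroblasts. Of the 7 breakdown genes tested, 1 had both taPVAT libraries above and 6 overlapped.

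Between classes, genes of these lists were often higher in fibroblasts. A gene low in the other class can pass the filter through fibroblasts, so the counts and medians are a description. For such a gene the call is no test, and no p-value is given. Of the genes called higher against smooth muscle, the smooth muscle sums alone passed the filter for Ltbp1, Adamts10, Loxl2, Adamts14, P3h3, Serpinh1 and Timp3. Against smooth muscle, 8 of 12 other elastic fibre genes tested, 1 of 1 other lysyl oxidase, 9 of 16 collagen processing genes and 6 of 7 breakdown genes were called higher, beside 12.1% of all genes. Their median log2 fold changes were 2.50, 0.75, 1.05 and 1.99, against -0.02 over all genes. The elastic fibre genes called were Vcan, a proteoglycan tied to microfibrils (5.20), Mfap5, Efemp1, Emilin2, Fbln2, Ltbp4, Ltbp1 and Adamts10, the last at 0.66. The other oxidase was Loxl2 (0.75, edgeR adjusted p 0.01299). Of collagen processing, Tll1 (6.71), Adamts2, Pcolce, Bmp1, P4ha2, P3h1, Adamts14, P3h3 and Serpinh1 were called higher. They run from the proteinases that trim procollagen to the collagen chaperone encoded by Serpinh1 (0.84). Of breakdown, Mmp2, a gelatinase (5.38), Timp2, Mmp14, Ctsk, Timp3 and Ctsl were called higher. P3h2, a prolyl hydroxylase of collagen, and Timp4 were called lower, at -1.81 (edgeR adjusted p 0.0001779) and -1.86, beside 9.56% of all genes. Timp4 reached the filter's cutoff in 2 fibroblast and 3 smooth muscle sums, so its call is no test. Against adipocytes, 11 of 15, 2 of 3, 15 of 19 and 8 of 9 genes of the lists were called higher, beside 18.9% of all genes. The calls were led by Vcan (5.44), Loxl3 (3.44), Tll1 (6.94) and Timp2 (4.92) in the 4 lists. The edgeR adjusted p values were 3.764e-08 for Vcan, 2.48e-08 for Tll1 and 2.791e-08 for Timp2. Loxl3, Fbn2, P3h4, Fkbp10 and Adamts3 passed the filter only with the fibroblasts, so their calls are no test. Fbn2, Fbln2, Efemp1, Efemp2, Mfap2, Mfap5, Ltbp1, Ltbp4, Emilin2 and Adamts10 were the other elastic fibre genes called higher, and Loxl2 the other oxidase. P4ha2, P4hb, P3h1, P3h3, P3h4, Colgalt2, Serpinh1, Fkbp10, Fkbp14, Bmp1, Pcolce, Adamts2, Adamts3 and Adamts14 were the other collagen processing genes, and Mmp2, Mmp14, Ctsk, Ctsl, Timp1, Timp3 and Timp4 the other breakdown genes. Ltbp2, which binds microfibrils, and P3h2 were called lower, at -0.92 and -0.86 (edgeR adjusted p 0.003798 and 0.01788), beside 16.8% of all genes. The medians were 3.54, 0.56, 2.21 and 1.85, against -0.07 over all genes. 

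In the tissue contrasts of smooth muscle, adipocytes and endothelial nuclei no gene of the 4 lists was called, and every edgeR adjusted p given here was at least 0.9998. In smooth muscle the largest changes without overlap in their lists were Efemp2 (-1.64 ± 0.74, SE), a fibulin, P4ha2 (-1.49 ± 0.59), a prolyl hydroxylase subunit, and Timp2 (-0.995 ± 0.52). Ltbp1 (-0.87), Colgalt1 (-0.53) and Timp3 (-0.78) also had both taPVAT libraries below both BAT libraries, while Mfap3 (0.84), Ppib (0.43) and Ctsk (0.87) had both above. Of all genes in smooth muscle, 13.4% lay below and 10.5% above. Some levels were low, such as Ctsk at 11.1 and 11.9 CPM in taPVAT and 9.62 and 2.79 CPM in BAT. All are from the gate that includes Lmod1, which was least pure in the 50 nuclei of taPVAT replicate 2. Efemp2 had 11.1 and 0 CPM in taPVAT. Without taPVAT replicate 2 the values were -1.07 for Efemp2, -0.26 for Ltbp1, 0.52 for Mfap3 and 0.21 for Ppib, and Timp3 was at -0.11 without BAT replicate 2. In adipocytes Mfap5 (0.91 ± 0.38, SE) and Adamts3 (0.65 ± 0.52, SE) had both taPVAT libraries above, and Ltbp1 (-0.57), P3h3 (-0.69) and P3h4 (-0.62) both below. Of all genes in adipocytes, 8.77% lay above and 10.8% below. Adamts3 was at 0.283 and 0.378 CPM in taPVAT and 0.240 and 0.186 CPM in BAT adipocytes. In endothelial nuclei Fbln2 measured 20.2 and 17.1 CPM in taPVAT and 11.7 and 9.34 CPM in BAT, or 0.82 ± 0.32 on the log2 scale (SE, edgeR adjusted p 0.9998). Efemp1 (0.70), Mfap5 (0.66), Adamts2 (1.06), P3h2 (0.46), Mmp2 (0.65) and Timp2 (0.41) had both taPVAT libraries above there, and Pcolce (-0.48) and Mmp14 (-0.63) both below. Of the 12 other elastic fibre genes tested there, 4 lay above, 1 below and 7 overlapped. Of all genes 10.9% lay above and 9.08% below. Without BAT replicate 1 Mfap5 was at 0.27, P3h2 at 0.21 and Timp2 at 0.19, without BAT replicate 2 Mmp2 was at 0.30 and Adamts2 at 0.62, and without taPVAT replicate 2 Pcolce was at -0.21.

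The genes with the most similar pattern to each of the 10 were sought by Pearson's r of log2(CPM + 1) over 40 sums of a class in a library, among 11126 genes. The sums share libraries, depth and free RNA, so r is a description. Fbn1 was most like Rhoj (0.885), Boc (0.884) and Col6a2 (0.869), the last a collagen VI chain. Fbln5 was most like Tek (0.901), Tcf4 (0.881) and Ramp2 (0.879), and Tek is one of the markers that gate endothelial nuclei. Plod2 was most like Cdh11 (0.847), which encodes a cadherin of mesenchymal cells, Lhfpl6 (0.840) and Klhl29 (0.838). Eln was most like RGD1306556 (0.848), Mical2 (0.833) and Phldb2 (0.826). For the others the highest r was 0.826 for Fbln1 (Fam180a), 0.822 for Plod1 (Lrp12), 0.802 for Loxl1 (C1qtnf7), 0.785 for Lox (Lurap1l) and 0.758 for Plod3 (Klhl9). Mfap4 reached 20 CPM in no sum and was left out.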

How the data were processed

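Frozen tissue gave nuclei for 10x Genomics 3-prime libraries (version 3.1), per the labels' protocols, with a target of 10000 nuclei. Per the submitters' processing notes, Cell Ranger 7.1.0 and the build Rnor_6.0 were used. The deposited matrices hold raw UMI counts per gene and barcode, and every barcode has at least 500 UMIs. Overlapping genes are uncertain, since no source used here gives the counting settings.

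Nuclei with at least 500 genes were kept. Doublets were called with Scrublet in scanpy 1.11.5, which removed 6.62 to 15.3% of nuclei in 3 libraries. It called 0 of 34553 in BAT replicate 1 and was judged to have failed there, so the 6402 nuclei with the highest scores (18.5%) were removed, a number set by how far the calls in the other libraries exceeded or missed the expected rate, taken at the median. This left 11520 to 38350 nuclei a library. A nucleus entered a class with UMIs of at least 3 markers of that list, where every other non-adipocyte list had at most 0.5 of that list's share of detected markers. The limit of 0.5 was waived between the smooth muscle and pericyte lists and between both endothelial lists. There the list with the larger share gave the class, and a tie left the nucleus out. Adipocytes needed 3 markers of their own and at most 1 of any other list. Raw counts were summed per library and class and tested with edgeR 4.0.16 (quasi-likelihood, TMM, filterByExpr) in R 4.3.3, with Benjamini-Hochberg adjustment and a threshold of 0.05. The SE printed with a log2 fold change is its absolute value divided by the square root of the test's F statistic. It draws on dispersion estimated across genes, so it is not the spread of that gene between its libraries. DESeq2 1.42.0, other gates, filters and left-out libraries were alternatives. Wilson 95% intervals cover counting error only. Where nothing says that libraries of both tissues came from separate rats, p-values measure the spread between these libraries.

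The 10 genes, the lists and the tests were chosen with earlier results of these data known. All 10 genes are described. Of the 4 companion lists the called genes and up to 3 with the largest change without overlap are named. The scripts were tested on simulated data. No protein sequences were used here.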

Additional observations from a re-analysis of the deposited data

Results flagged for a closer look

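For 3 genes the libraries of taPVAT lay above those of BAT in fibroblasts and below them in smooth muscle. The log2 fold changes of taPVAT over BAT were 2.26 and -0.77 for Eln, 1.13 and -1.31 for Loxl1, and 5.06 and -1.15 for Plod2, in fibroblasts and in smooth muscle. In smooth muscle Loxl1 had 9 and 1 UMIs in taPVAT against 23 and 25 in BAT, and Plod2 had 8 and 7 against 48 and 27. The difference between the classes was not tested, and the genes were chosen with both contrasts known. With Lmod1 left out of the smooth muscle gate, the tissues overlapped in smooth muscle for Eln (1115 and 2703 CPM in taPVAT, 1418 and 2332 CPM in BAT) and for Plod2 (20.5 and 93.7 CPM against 76.9 and 41.1 CPM). Loxl1 was still lower in both taPVAT libraries, on 7 and 0 UMIs against 22 and 22. The Plod2 levels with that gate rest on 8 and 6 UMIs against 45 and 22.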

How the results depend on the processing

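Depth limits Mfap4, Lox and Plod3, and the 1 to 11 Plod2 UMIs of BAT fibroblasts, and 2 libraries a tissue limit every test. The replicate numbers are not said to pair the samples. With the replicate number as a block, 301 genes were called in fibroblasts, 1 in smooth muscle, 313 in adipocytes and 142 in endothelial nuclei, in place of 10, 0, 0 and 0, and none of the 10 genes was called in the last 2. The difference of replicate 1 from replicate 2 in taPVAT was correlated, across the genes tested, with that in BAT. The correlation was 0.483, 0.385, 0.730 and 0.586 over 9376, 7885, 15268 and 11797 genes, from 1 difference a tissue. DESeq2 called 39, 1, 57 and 4 genes, and no filter on low counts gave 137, 16, 75 and 46. In fibroblasts a gate of 4 markers gave 2 and no doublet removal 0. Leaving out 1 library gave 0 to 61, 0 to 7, 0 to 110 and 1 to 8 calls. Fibroblast over smooth muscle gave 1774 calls, 2758 without the filter and 911 to 2043 without 1 library. The cause of these shifts was not tested.

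Signs of small log2 fold changes among the 10 genes turned when 1 library was left out. In adipocytes Eln ranged from -1.81 to 0.35, Fbln1 from -0.91 to 2.59, Fbln5 from -0.51 to 0.92, Lox from -0.14 to 0.86, Loxl1 from -0.30 to 0.95 and Plod1 from -0.28 to 0.11. In endothelial nuclei Eln ranged from -0.58 to 0.39, Lox from -0.94 to 0.68 and Fbln1 from -0.36 to 0.67. For fibroblast over smooth muscle, Plod2 ranged from -0.71 to 1.62 and Plod1 from -0.21 to 0.015, and Plod2 was at -0.12 under DESeq2. In endothelial nuclei Eln also turned to 0.14 with 4 markers, 0.035 with 1000 genes and 0.13 with no doublet removal, where Lox was at 0.24. Among the members of the fibroblast contrast, 11 of 117 values moved by more than the SD of log2(CPM + 1) between libraries of a tissue, pooled over both tissues. Plod2 lay between 4.64 and 6.56, the last without BAT replicate 1, where 1 BAT UMI was left. The smooth muscle gates with 4 markers or without Lmod1 were not run as fits, with under 20 nuclei in taPVAT replicate 2.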
